A study of Mus musculus with 14 samples.

Results

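The genes described here are those of cholesterol synthesis and of its control by SREBP2, taken by name from a list of 27 mouse genes and read across the 4 groups of a study of aorta and liver. The deposited tables hold 24732 features, and 26 of the 27 listed genes were described. A row under the listed name was found for 25, Msmo1 was read from the row that carries its older symbol Sc4mol, and Hmgcs1 was not analysed here. The 26 are 19 enzymes of the pathway and 7 genes of sterol sensing, transport and uptake. RNA was measured in 3 aortas of HuBL mice, 3 aortas of BT3xHuBL mice, 4 livers of HuBL mice and 4 livers of BT3xHuBL mice, all after 52 weeks of normal laboratory diet. The labels name the strains without their alleles. As background from the field, the HuBL strain expresses human apolipoprotein B from a transgene. BT strains have T cells with a fixed receptor against that protein. By their name, the BT3xHuBL mice share the HuBL background. The labels do not say whether each library came from a separate animal, so the p-values below measure the spread between libraries, which may be technical.

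Cholesterol is built from acetyl-CoA by way of mevalonate, isoprenoid diphosphates, squalene and lanosterol. When sterol in the endoplasmic reticulum is low, SCAP carries the membrane-bound SREBP2 protein to the Golgi, where it is cut to release a transcription factor that raises most genes of the pathway together. When sterol is plentiful, INSIG proteins hold SCAP back. The liver is a main site of cholesterol synthesis, whereas most cells of an artery wall can also take up cholesterol from lipoproteins.

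Levels are given as CPM, the count of a gene scaled to a library of common size, with library sizes adjusted by the trimmed mean of M-values (TMM) within each tissue. Fold changes between tissues came from a joint fit with its own TMM scaling over the features measured in both, in which a CPM is 0.939 to 0.957 times the printed one in the aortas and 1.44 to 1.46 times in the livers. A small difference in printed CPM between tissues can therefore run against its fold change. Each transcript gives reads from its 3′ end with this library kit, so CPM were compared between genes without a length correction. The libraries held 41933263 to 65539765 counts in the aorta and 13228123 to 17992459 in the liver. Genes that define hepatocytes summed to 117115 to 151867 CPM in the livers and to 22.8 to 30.8 CPM in the aortas. Smooth muscle genes summed to 12144 to 16561 CPM in the aortas and to 17.98 to 46.7 CPM in the livers, so both tissue labels matched their markers. The aortas also held 2185 to 3040 CPM of white adipocyte genes. Lipid-laden macrophage genes summed to 22799 to 29110 CPM in the HuBL aortas and to 19038 to 22505 CPM in those of BT3xHuBL. Fibroblast genes summed to 18658 to 19295 and 15964 to 18247 CPM, and B and plasma cell genes to 440 to 816 and 92.4 to 247 CPM. These lists thus did not overlap between the genotypes, whereas the smooth muscle, white adipocyte, macrophage and endothelial sums did. In such bulk tissue, fewer cells of a type and less RNA per cell cannot be told apart.

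Promoters of the members were read as a description of sequence features that the choice of genes by name did not use. The RefSeq promoter table (GRCm38.p6) held 28 promoters of 22 of the 26 genes, and the 250 bases before each start were searched on both strands for 4 motifs. CCAAT, the core of the NF-Y site, lay in a promoter of 20 of the 22 genes (90.9%), against 37.5% of the 27025 genes in the table and 40.5% of the 9038 genes measured in both tissues. Counted by promoter, it lay in 71.4% of the 28 and in 33.8% of all 32851. Acat2 and Scap were the genes without it. GGGCGG, the core of the Sp1 site, lay in 19 of 22 (86.4%), against 35.4% of all genes and 64.3% of those measured in both tissues. CACGTG, an E-box, lay in 5 of 22 (22.7%), against 6.86% and 10.1%. The sterol element core CACCCCAC was found in 1 of 22 (4.55%), against 2.98% and 3.41%. A promoter of Hmgcs1, left out of these counts because its RNA was not analysed here, also holds that core, 136 bases before the start. A match is a string of letters and not a measured site, and most sterol elements deviate from that 1 string.

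Printed below are the promoters of 5 genes that stand for the patterns in the values. Acat2 is the gene of the 22 with CACCCCAC, Mvd varied widely between livers, Ebp varied little, and Ggps1 and Mylip were lower in the liver than in the aorta. Each is 5′ to 3′ on the strand of the gene, with every match to the 4 motifs on either strand in capitals and no matches overlapping, so that CCAAT reads ATTGG and GGGCGG reads CCGCCC on the opposite strand. The windows are chr17:12960726-12960975 on the minus strand for Acat2, chr8:122443423-122443672 on the minus strand for Mvd, chrX:8193513-8193762 on the minus strand for Ebp, chr13:14063489-14063738 on the minus strand for Ggps1 and chr13:45389492-45389741 on the plus strand for Mylip.
Acat2: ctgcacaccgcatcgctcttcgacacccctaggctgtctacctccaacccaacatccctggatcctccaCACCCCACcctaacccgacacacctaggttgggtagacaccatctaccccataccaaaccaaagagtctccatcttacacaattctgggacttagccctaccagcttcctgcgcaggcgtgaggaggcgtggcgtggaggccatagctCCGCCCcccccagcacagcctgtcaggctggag
Mvd: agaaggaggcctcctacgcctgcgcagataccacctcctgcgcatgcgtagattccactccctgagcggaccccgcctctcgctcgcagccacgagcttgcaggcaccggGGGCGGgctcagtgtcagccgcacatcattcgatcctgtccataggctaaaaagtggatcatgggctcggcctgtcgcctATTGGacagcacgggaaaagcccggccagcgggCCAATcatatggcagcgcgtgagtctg
Ebp: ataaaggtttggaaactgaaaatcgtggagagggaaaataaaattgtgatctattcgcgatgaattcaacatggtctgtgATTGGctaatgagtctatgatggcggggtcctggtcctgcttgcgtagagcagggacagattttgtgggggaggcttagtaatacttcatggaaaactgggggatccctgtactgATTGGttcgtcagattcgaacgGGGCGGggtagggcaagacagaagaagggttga
Ggps1: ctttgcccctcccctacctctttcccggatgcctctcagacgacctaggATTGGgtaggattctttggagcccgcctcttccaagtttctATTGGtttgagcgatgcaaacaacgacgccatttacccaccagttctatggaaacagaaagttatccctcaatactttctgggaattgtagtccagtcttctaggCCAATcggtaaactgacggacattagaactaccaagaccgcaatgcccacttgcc
Mylip: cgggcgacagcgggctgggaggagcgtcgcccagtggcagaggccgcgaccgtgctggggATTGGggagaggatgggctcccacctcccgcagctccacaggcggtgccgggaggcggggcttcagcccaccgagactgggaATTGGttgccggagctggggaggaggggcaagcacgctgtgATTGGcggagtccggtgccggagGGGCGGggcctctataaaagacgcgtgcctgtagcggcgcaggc

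Of these, Mvd and Ebp each hold 2 CCAAT matches and 1 GGGCGG match. The Ggps1 window holds 3 CCAAT matches and no GGGCGG, and the Mylip window holds 3 and 1. The pair that was lower in the liver thus held CCAAT, as did all of the 22 genes with a promoter entry except Acat2 and Scap, which were higher in the liver.

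The 19 enzymes together made up 275 to 297 CPM in the HuBL aortas and 274 to 284 CPM in the BT3xHuBL aortas. They made up 2141 to 3443 CPM in the HuBL livers and 2091 to 3875 CPM in the BT3xHuBL livers. The means were 286 ± 11.1 and 280 ± 5.36 CPM in the aorta (SD, n = 3 each) and 2856 ± 579 and 2668 ± 827 CPM in the liver (SD, n = 4 each). The aortas lay within a narrow range, and the HuBL livers lay inside the wider range of the BT3xHuBL livers.

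**Figure D1:**
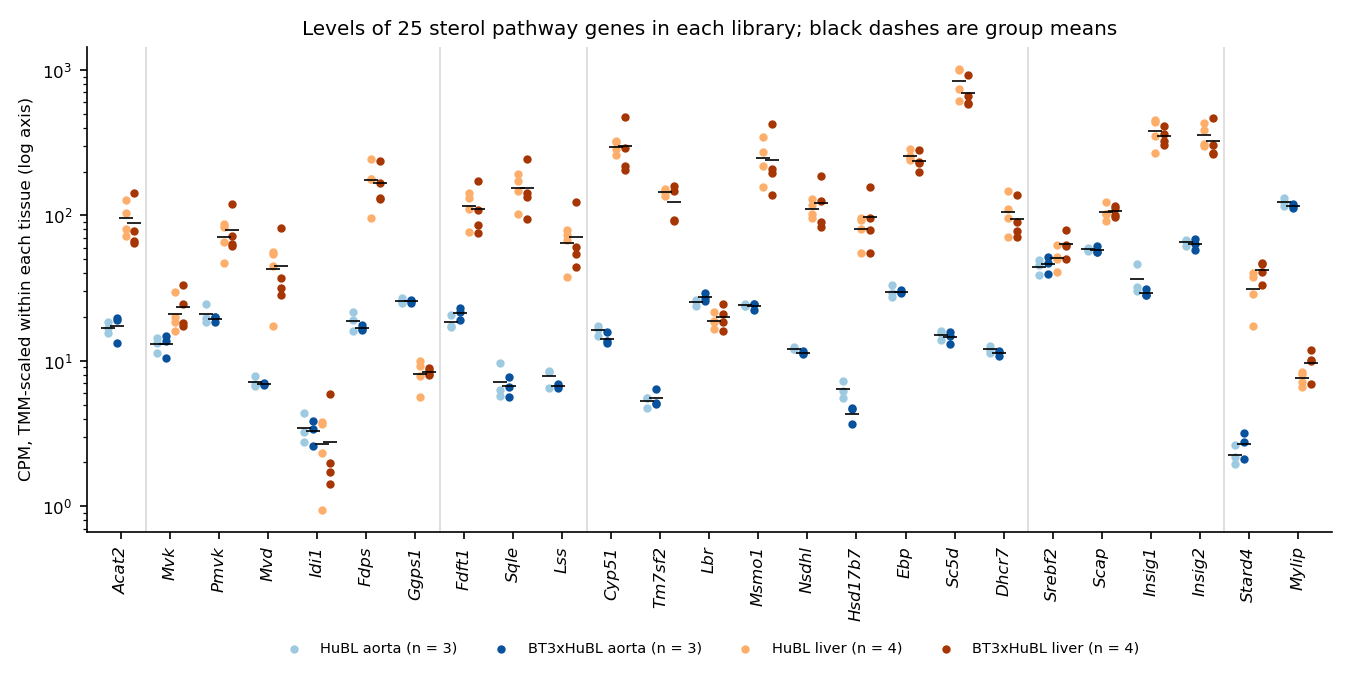
CPM of 25 genes in each library on a log axis, by tissue and genotype, with black dashes for group means; grey lines divide the steps of the pathway, its regulators and transport genes. Most genes lie higher in the liver points than in the aorta points, and the liver points spread more. Ggps1 and Mylip lie lower, as do Idi1 and Lbr by group mean in each genotype on this scaling within each tissue.

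The liver and the aorta differed in nearly every step. In a joint fit of all 14 libraries, 21 of the 25 genes tested were higher in the liver and 2 were lower, and the same 21 and the same 2 were called in both genotypes (edgeR's quasi-likelihood test, Benjamini-Hochberg adjusted over 11951 features). The 23 called of 25 (92.0%) compare with 81% of all features in HuBL and 80.8% in BT3xHuBL. Those higher in the liver, 21 of 25, compare with 39.1% and 39.9% of all features, and the 2 lower with 41.8% and 40.9%. On the joint scaling the same 21 genes lay higher in every liver than in every aorta of the genotype, as 38.5% and 38.6% of all features did. The median log2 fold change over the 25 was 3.65 in HuBL and 3.59 in BT3xHuBL, against -0.04 and -0.00 over all features.

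These folds depend on the scaling, since the features measured in both tissues held 96.7% to 97.0% of the aorta counts and 72.5% to 74.1% of the liver counts. With plain library totals in place of TMM, the median over all features shifted by -0.63 in HuBL and -0.60 in BT3xHuBL, and the medians over the 25 genes became 3.03 and 2.99. All features called then split into 2766 higher and 7245 lower in HuBL, in place of 4677 and 4998, and into 2765 and 7026 in BT3xHuBL, in place of 4770 and 4892. The 2 tissues also differ in library size, and tissue cannot be told apart from library preparation.

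**Figure D2:**
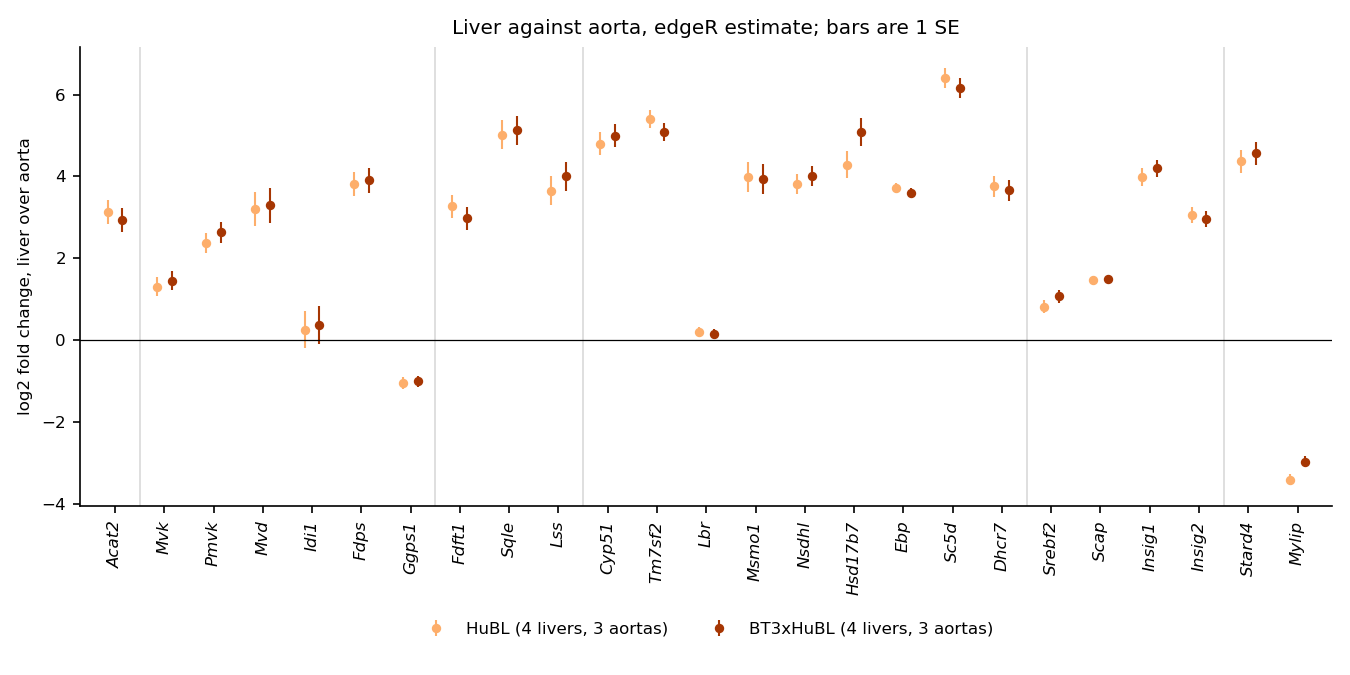
log2 fold change of liver over aorta for 25 genes in each genotype (edgeR estimate on TMM scaling, points, with 1 SE as bars). Sc5d stands highest and Mylip lowest in both genotypes, and Idi1 and Lbr sit near 0, with signs that flip under plain library totals.

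Among the early steps, Acat2, the cytosolic thiolase that starts the pathway, stood at 16.9 ± 1.45 CPM in HuBL aorta and 96.4 ± 25.1 CPM in HuBL liver (SD, n = 3 and 4). Its log2 fold change of liver over aorta was 3.13 in HuBL and 2.94 in BT3xHuBL. The kinases of mevalonate (Mvk) and of phosphomevalonate (Pmvk) were higher by 1.30 and 2.38 in HuBL and by 1.46 and 2.64 in BT3xHuBL. Mvd, the decarboxylase that follows, was higher by 3.20 (SE 0.43, adjusted p = 9.83e-06, edgeR) and 3.30 (SE 0.43, adjusted p = 7.49e-06, edgeR). Idi1, the isomerase that makes the reactive isoprenoid unit, had the lowest level of the 19 enzymes in every group, at 2.69 ± 1.34 CPM in HuBL liver (SD, n = 4) and 3.44 ± 0.82 CPM in HuBL aorta (SD, n = 3). On the joint scaling these means were 3.90 and 3.26 CPM. Its log2 fold change of liver over aorta was 0.26 (SE 0.46) in HuBL and 0.36 (SE 0.46) in BT3xHuBL, neither past the test, and it became -0.36 and -0.21 with plain library totals.

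The branch point for farnesyl and geranylgeranyl diphosphate separated by tissue. Fdps, which makes farnesyl diphosphate for the sterol path, was at 18.9 ± 2.83 CPM in HuBL aorta (SD, n = 3) and 174 ± 61.0 CPM in HuBL liver (SD, n = 4). Ggps1, which extends it to the geranylgeranyl form used to anchor proteins in membranes, went the other way, from 25.9 ± 1.20 to 8.16 ± 1.90 CPM (SD, n = 3 and 4). Its log2 fold change was -1.05 (SE 0.14, adjusted p = 3.62e-06, edgeR) in HuBL and -1.01 (SE 0.14, adjusted p = 5.09e-06, edgeR) in BT3xHuBL. The ratio of Fdps to Ggps1 within a library was 0.62 to 0.87 in the 6 aortas and 14.8 to 31.2 in the 8 livers.

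From squalene onward all but 1 enzyme were higher in the liver. Fdft1, which makes squalene, was higher by 3.27 in HuBL and 2.98 in BT3xHuBL on the log2 scale, Sqle, which oxidises it, by 5.02 and 5.13, and Lss, which closes the ring to lanosterol, by 3.65 and 4.00. Fdft1, Lss and Tm7sf2 carry a mark for overlapping genes in the tables, so their counts may be incomplete or shared. Sc5d (chr9:42251595-42264256, minus strand, GRCm38), the desaturase of a late sterol ring, was the most abundant member in the liver, at 841 ± 196 CPM in HuBL and 689 ± 156 CPM in BT3xHuBL (SD, n = 4 each), and at 15.2 ± 1.13 and 14.6 ± 1.35 CPM in aorta (SD, n = 3 each). Its difference of 6.41 (SE 0.24) in HuBL and 6.17 (SE 0.24) in BT3xHuBL was the largest among the members. Cyp51, the lanosterol demethylase, was higher by 4.81 and 4.998, Msmo1 by 3.98 and 3.94, Nsdhl by 3.82 and 4.01, and Hsd17b7 by 4.29 and 5.08, the last 3 being the enzymes that remove paired methyl groups. Ebp, a sterol isomerase, was higher by 3.72 and 3.59, and Dhcr7, a last-step reductase, by 3.76 and 3.66.

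Tm7sf2 (chr19:6062821-6068373) and Lbr (chr1:181815335-181843046, both on the minus strand of GRCm38) encode 2 reductases for the same double bond, and Lbr is also a nuclear envelope protein that binds lamin B. In the aorta Lbr was the more abundant, with 23.6 to 29.1 CPM against 4.71 to 6.42 CPM of Tm7sf2. In the liver the order was reversed, with 16.1 to 24.4 CPM of Lbr against 91.3 to 158 CPM of Tm7sf2. The ratio of Tm7sf2 to Lbr was 0.18 to 0.24 in the 6 aortas and 4.44 to 8.89 in the 8 livers, and no aorta overlapped a liver. Tm7sf2 was higher in the liver by 5.40 (SE 0.22) in HuBL and 5.08 (SE 0.22) in BT3xHuBL. On the joint scaling Lbr stood at 22.2 to 27.9 CPM in the aortas and 23.4 to 35.1 CPM in the livers. Its log2 fold change was 0.20 (SE 0.13) and 0.16 (SE 0.12), not past the test, and with plain library totals by -0.42 (adjusted p = 0.0135, edgeR) and -0.43 (adjusted p = 0.0111, edgeR).

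Of the genes that sense sterol, Srebf2 and Scap differed less between tissues than most enzymes, and the Insig genes as much. Srebf2, which encodes SREBP2, was at 44.4 ± 5.26 CPM in HuBL aorta (SD, n = 3) and 51.2 ± 8.76 CPM in HuBL liver (SD, n = 4). The HuBL aortas and livers overlapped on this scaling, and on the joint scaling they read 36.3 to 46.7 and 59.6 to 90.4 CPM. Its log2 fold change was 0.82 (SE 0.16, adjusted p = 0.000220, edgeR) in HuBL and 1.07 (SE 0.16, adjusted p = 1.72e-05, edgeR) in BT3xHuBL. With plain library totals, the HuBL value was 0.20 with adjusted p = 0.297 in edgeR. Scap was higher in the liver by 1.47 and 1.49. Insig1, itself an SREBP target, was higher by 3.99 and 4.20, and Insig2 by 3.06 and 2.96. The ratio of Insig1 to Insig2 was 0.41 to 0.69 in the aortas and 0.89 to 1.22 in the livers.

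The transport genes moved in opposite directions. Stard4, which moves cholesterol between membranes, was the lowest tested gene in the aorta at 2.26 ± 0.35 CPM in HuBL (SD, n = 3) and stood at 30.9 ± 10.3 CPM in HuBL liver (SD, n = 4). Mylip, a ubiquitin ligase raised by the oxysterol receptors LXR that marks lipoprotein receptors for breakdown, was the most abundant of the 26 in the aorta, at 112 to 131 CPM. In the liver it was at 6.56 to 11.8 CPM. Its log2 fold change was -3.41 (SE 0.14, adjusted p = 2.22e-12, edgeR) in HuBL and -2.97 (SE 0.13, adjusted p = 7.92e-12, edgeR) in BT3xHuBL. Npc1l1, which takes up sterol in the intestine and in mice is scarce in liver, had 2 to 17 counts in the aortas and 0 to 2 in the livers, too few to be tested. The 3 livers with 0 counts allow up to 0.226, 0.202 and 0.199 CPM, a limit of 3 counts that covers counting error only.

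Between BT3xHuBL and HuBL aortas no member differed past the test. None of the 25 tested genes was called (edgeR's quasi-likelihood test, every adjusted p = 1.00), as 0.026% of the 15400 features were. Of the 25, 19 had a log2 fold change below 0, as 51.5% of all features did, with a median of -0.05 against -0.00. With plain library totals 14 of 25 lay below 0. Hsd17b7 (chr1:169949535-169969241, minus strand, GRCm38) was the 1 gene with an unadjusted p below 0.05, a share of 4.08% over all features. It read 7.31, 6.23 and 5.52 CPM in the HuBL aortas and 4.66, 3.65 and 4.71 CPM in those of BT3xHuBL. All 3 BT3xHuBL aortas lay below all 3 HuBL aortas, a log2 fold change of -0.55 (SE 0.19). Nsdhl showed the same order, at 12.4, 12.1 and 12.0 CPM in the HuBL aortas against 11.7, 11.1 and 11.3 CPM, with a log2 fold change of -0.09 (SE 0.11). These 2 of 25 compare with 4.9% of all features whose BT3xHuBL libraries all lay lower.

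Insig1 was at 46.7, 32.0 and 30.3 CPM in the HuBL aortas and at 31.0, 28.2 and 28.3 CPM in BT3xHuBL aorta. The HuBL library of replicate 1 was alone in standing high, and the log2 fold change of -0.32 (SE 0.15) became -0.10 without it. Sqle and Lss were also highest in that library, at 9.61 and 8.54 CPM. Fdft1 and Stard4 had positive estimates, of 0.21 (SE 0.11) and 0.25 (SE 0.25), and Cyp51, Lss and Fdps had negative ones, of -0.20 (SE 0.11), -0.22 (SE 0.16) and -0.16 (SE 0.12). The 15 clock genes summed to 545 to 581 CPM in the HuBL aortas and to 686 to 893 CPM in those of BT3xHuBL, without overlap. Of the 15, 12 lay above 0 and 3 below, where 51.5% of all features lay below. Their median log2 fold change was 0.65, against -0.00 over all features. The 1 called was Dbp, a clock output factor, at 1.44 (SE 0.13, adjusted p = 0.00890, edgeR), and without HuBL replicate 2 or 3 no feature was called. The lipid-laden macrophage, fibroblast and B and plasma cell sums, given above, were also lower in the BT3xHuBL aortas without overlap. The part of the clock or of these cell type lists in the aorta values of the members was not tested.

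**Figure D3:**
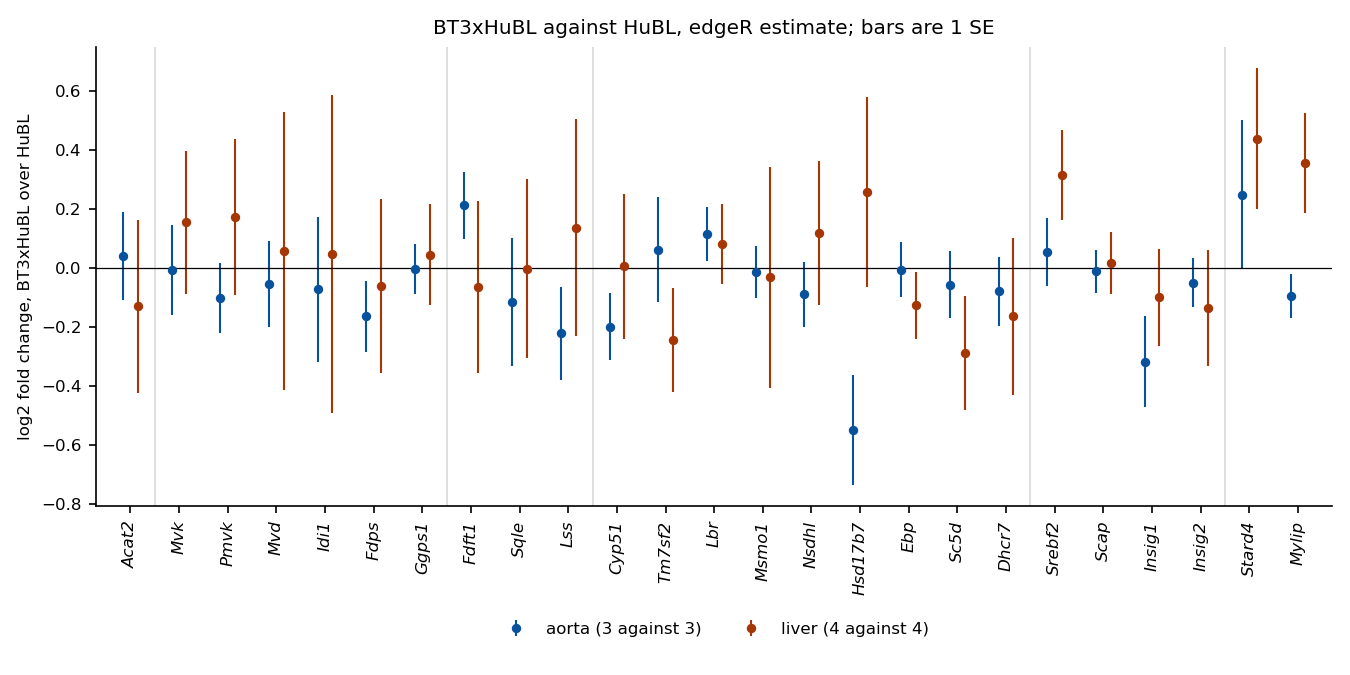
log2 fold change of BT3xHuBL over HuBL for 25 genes in each tissue (edgeR estimate, points, with 1 SE as bars). No gene was called in either tissue, the liver bars are wider for most enzymes, and Hsd17b7 in the aorta lies lowest at -0.55.

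In the liver none of the 25 genes was called by genotype either (edgeR's quasi-likelihood test, adjusted p = 0.458 to 0.997), and 0% of the 12453 features were. At an unadjusted p below 0.05 there were 0 of 25 members and 11.1% of all features, and DESeq2, which called 133 features, also called 0 of 25. Of the 25, 14 lay above 0, as 51.8% of all features did, and 11 below, with a median of 0.02 against 0.01 over all features. The genotypes overlapped for all 25, whereas 6.57% of all features did not overlap. Mylip read 6.56, 7.18, 8.13 and 8.44 CPM in HuBL liver and 10.1, 9.91, 6.97 and 11.8 CPM in BT3xHuBL liver. Of the BT3xHuBL livers, 3 lay above every HuBL liver, and the log2 fold change was 0.36 (SE 0.17). Srebf2 was at 40.9 to 62.3 CPM in HuBL and 50.4 to 79.7 CPM in BT3xHuBL liver, a change of 0.31 (SE 0.15), and Stard4 at 17.4 to 40.04 and 33.2 to 46.8 CPM, a change of 0.44 (SE 0.24). Sc5d, Tm7sf2 and Ebp had estimates below 0, of -0.29 (SE 0.19), -0.24 (SE 0.18) and -0.13 (SE 0.11).

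The liver estimates turned on single libraries. Without BT3xHuBL replicate 1 the median over the 25 was -0.28, with 21 of 25 below 0, Mvd at -0.41, Msmo1 at -0.45 and Hsd17b7 at -0.08. Without HuBL replicate 1 it was -0.13, with 17 below 0, and without HuBL replicate 2 it was 0.12, with 6 below 0. No member was called under any of the 18 alternatives tried for the liver or the 16 tried for the aorta.

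The genotype effect was compared between the tissues by the interaction term of the joint fit. None of the 25 members was called (adjusted p = 0.542 to 0.991, edgeR), and 0% of the 11951 features were, with 8.61% at an unadjusted p below 0.05. Mylip was the 1 member below 0.05 unadjusted, with a difference, liver minus aorta, of 0.44 (SE 0.19). Hsd17b7 differed by 0.79 (SE 0.41), with adjusted p = 0.628 in edgeR.

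Within the liver, the enzymes moved together from library to library. BT3xHuBL replicate 1 was the highest of the 8 livers for 13 of the 19 enzymes (68.4%), and for 1868 of the 12453 tested features. HuBL replicate 1 and BT3xHuBL replicate 3 were each the lowest for 8 of 19 (42.1%), against 16.6% and 12.7% of all features. Relative to the mean of each gene over the livers, the median log2 level of the enzymes was 0.63 in BT3xHuBL replicate 1, with 18 of 19 above 0. It was -0.55 in HuBL replicate 1 and -0.49 in BT3xHuBL replicate 3, with 2 and 0 of 19 above 0. Among the HuBL livers alone, replicate 1 was lowest for 16 of 19, against 29.0% of all features. Among the BT3xHuBL livers alone, replicate 1 was highest for 16 of 19 and replicate 3 lowest for 14, against 26.2% and 26.1%. In the aorta HuBL replicate 1 was highest for 7 of 19 (36.8%), against 12.6% of all features, and BT3xHuBL replicate 2 lowest for 6 (31.6%), against 21.5%. The medians of the aortas lay between -0.05 and 0.07.

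**Figure D4:**
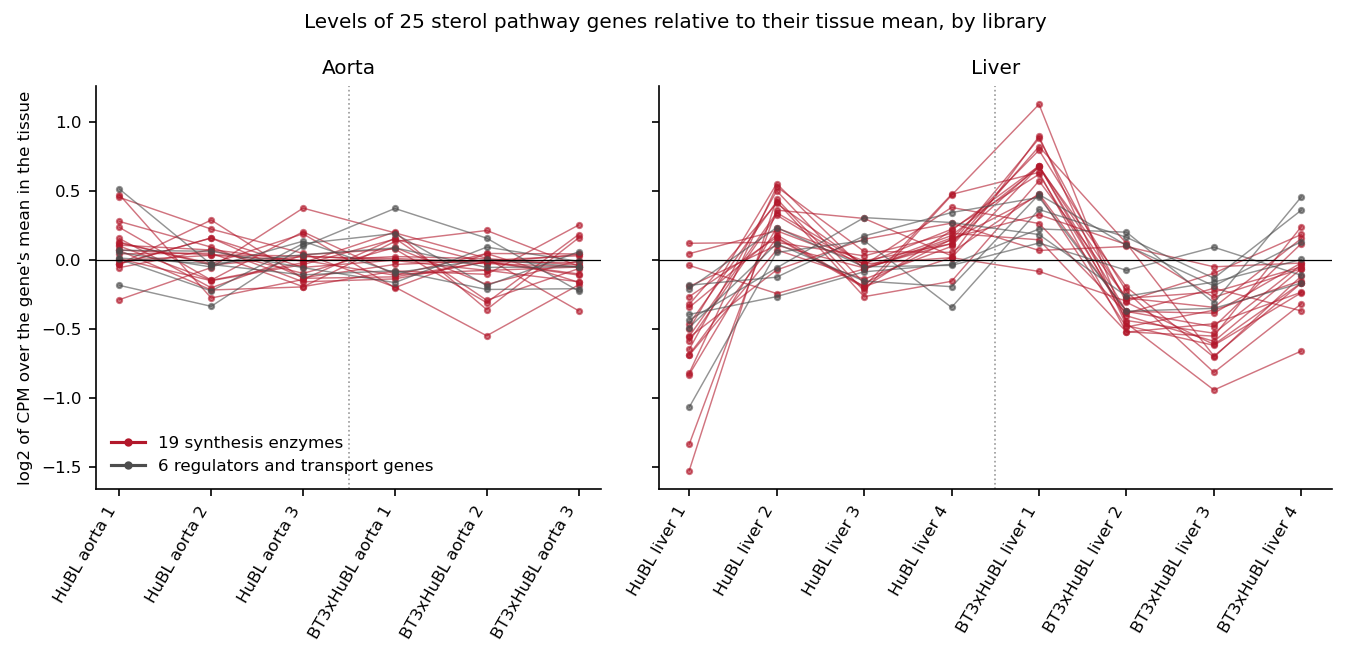
log2 of the CPM of each gene over its mean in the tissue, by library; red lines are the 19 enzymes, grey lines 6 regulators and transport genes, and dotted lines divide the genotypes. In the liver the lines move together, low in HuBL replicate 1 and high in BT3xHuBL replicate 1, and in the aorta they stay near 0.

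Idi1 and Mvd had the widest swings. Idi1 (chr13:8885501-8892451, plus strand, GRCm38) read 0.946, 3.70, 2.33 and 3.77 CPM in the HuBL livers and 5.95, 1.98, 1.42 and 1.73 CPM in the BT3xHuBL livers, a 6.29-fold range. Mvd read 17.4, 56.2, 53.9 and 44.7 CPM in the HuBL livers and 81.3, 31.5, 28.5 and 37.1 CPM in the BT3xHuBL livers, a 4.69-fold range. For both genes the lowest liver was HuBL replicate 1 and the highest was BT3xHuBL replicate 1.

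Lss spanned 3.27-fold over the 8 livers, from 38.0 to 124 CPM, and Msmo1 3.05-fold, from 139 to 424 CPM. Hsd17b7 spanned 2.86-fold, Sqle 2.59-fold and Cyp51 2.32-fold, each with its highest value in BT3xHuBL replicate 1 and its lowest in BT3xHuBL replicate 3. Ebp, Lbr and Scap stayed within 1.42-fold, 1.51-fold and 1.36-fold. Tm7sf2 followed another order, at 91.3 and 93.3 CPM in BT3xHuBL replicates 3 and 2 and at 137 to 158 CPM in the other 6 livers. Among genes of at least 5 CPM, the median coefficient of variation (CV) of the enzymes was 25.3% in HuBL liver and 36.6% in BT3xHuBL liver, against 10.6% and 11.3% over all features. In aorta it was 8.95% and 6.08%, against 7.22% and 8.20%.

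The regulators followed the enzymes in part. Srebf2 was lowest in HuBL replicate 1, at 40.9 CPM, and highest in BT3xHuBL replicate 1, at 79.7 CPM. Stard4 had the same lowest and highest library, at 17.4 and 46.8 CPM. Insig1 was lowest in HuBL replicate 1, at 270 CPM, but highest in HuBL replicate 3, at 451 CPM. Insig2 was highest in BT3xHuBL replicate 1, at 465 CPM, and lowest in BT3xHuBL replicate 2, at 263 CPM.

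Other measures of these livers were set beside this pattern. The 10 genes of fatty acid synthesis under SREBP1 were lowest in HuBL replicate 1 for 6 genes, but BT3xHuBL replicate 1 was highest for only 2 of 10, and BT3xHuBL replicate 4 had the lowest sum, at 7210 CPM. The hepatocyte genes summed to 151867 CPM in HuBL replicate 1, the highest liver, and to 117115 CPM in BT3xHuBL replicate 3, the lowest. The enzyme sums of these libraries were 2141 and 2091 CPM. In BT3xHuBL replicate 1 the hepatocyte sum was 126089 CPM, within the range of the others. That library also had the highest sums of the bile duct, fibroblast and lipid-laden macrophage lists, at 266, 334 and 333 CPM, against 101 to 159, 196 to 293 and 137 to 237 CPM in the other 7 livers. The bile duct list does not mark bile ducts alone, since it shares Spp1 with the macrophage list and summed to 10614 to 17370 CPM in the aortas. The part of these lists in the enzyme levels was not tested. Cholesterol synthesis has a daily rhythm in rodent liver. The 15 clock genes had their highest sum in BT3xHuBL replicate 2, at 608 CPM, against 315 to 434 CPM in the other 7. BT3xHuBL replicate 1 stood at 434 CPM. By genotype in liver, 10 of the 14 tested clock genes lay above 0, against 51.8% of all features, and 0 were called. Their median log2 fold change was 0.26, against 0.01 over all features. The labels used here give no hour of collection, a sum over clock genes does not give one, and the part of the clock was not tested.

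**Figure D5:**
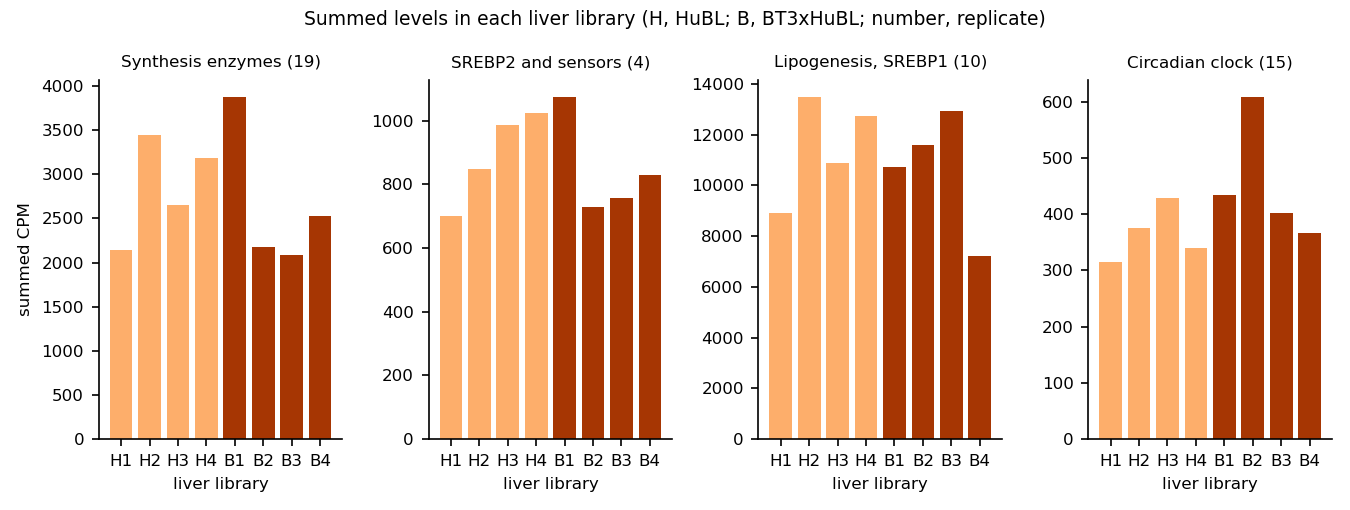
Summed CPM in each liver library of the 19 synthesis enzymes, the 4 genes of SREBP2 and its sensors, 10 lipogenic genes and 15 clock genes; bars start at 0 and H and B mark HuBL and BT3xHuBL replicates. The enzymes peak in B1 at 3875 CPM, the lipogenic genes in H2 and the clock genes in B2.

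Further genes of the pathway came from lists chosen with earlier results of these data known. Of 12 other sterol synthesis and SREBP2-responsive genes measured in liver, 0 were called by genotype, 4 lay above 0 and 8 below, and the median was -0.10. Tmem97, a sterol-responsive membrane protein, changed by -0.21 (SE 0.08, adjusted p = 0.376, edgeR) in liver. Of the 11 tested in both tissues, 10 were higher in the liver and 1 lower in each genotype. Over all features 39.1% were higher and 41.8% lower in HuBL, and 39.9% and 40.9% in BT3xHuBL. Fads1 and Fads2, desaturases of polyunsaturated fatty acids, were higher in HuBL liver by 3.49 and 3.35 on the log2 scale.

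A list of 13 genes covered SREBP processing and the breakdown of a reductase of the pathway. Of these, 7 were higher and 3 lower in HuBL liver, and 9 and 4 in BT3xHuBL liver. The 10 and 13 called compare with 81% and 80.8% of all features. None was called by genotype, with Mbtps2, a protease that cuts SREBP, at -0.16 (SE 0.08) in aorta and Sp1, the partner factor, at 0.17 (SE 0.09) in liver. Among 11 genes of the isoprenoid branches that leave the sterol path, to which Ggps1 leads, 2 were higher and 3 lower in HuBL liver, and 2 and 4 in BT3xHuBL liver, so that 5 and 6 of 11 were called against the same 81% and 80.8%. In the genotype comparisons Coq2, of ubiquinone synthesis, changed by -0.19 (SE 0.08, adjusted p = 0.418, edgeR) in liver, and none of the 11 was called in either tissue.

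Of 11 sterol export, storage and LXR genes tested in both tissues, 4 were higher and 7 lower in the liver in each genotype, against 39.1% and 41.8% of all features in HuBL and 39.9% and 40.9% in BT3xHuBL. Their median was -0.55 in HuBL and -0.63 in BT3xHuBL, against -0.04 and -0.00. By genotype, Nr1h3, which encodes LXR alpha, was higher by 0.30 (SE 0.09, adjusted p = 0.899, edgeR) in aorta, and Npc2, which frees cholesterol from lysosomes, changed by -0.28 (SE 0.09, adjusted p = 0.334, edgeR) in liver. Of the 10 lipogenic genes, 7 in HuBL and 8 in BT3xHuBL were higher in the liver and 1 was lower in each, and 0 were called by genotype. In the aorta all 10 were lowest in BT3xHuBL replicate 2, at a sum of 1597 CPM against 2120 to 3576 CPM. The 19 enzymes summed to 274 CPM there, against 275 to 297 CPM in the other 5. The brown adipocyte genes were also lowest in that library, at 43.2 CPM against 121 to 243 CPM. The white adipocyte genes were highest in it, at 3040 CPM. The part of these 2 lists in the lipogenic values was not tested.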

How the data were processed

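The values used were raw counts per gene, which the authors deposited as 1 table per tissue. Per the labels' protocols, total RNA was extracted with a column kit and sequenced as Lexogen QuantSeq V2 libraries, and per the submitters' processing notes reads were counted with HTSeq 2.0 against GRCm38. Strand setting, aligner and annotation were not given in the sources used here. Reads came from 3′ ends, so a count depends little on transcript length but does depend on the annotated transcript end.

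The members and lists were chosen with earlier results of these data known. Members were matched on the first field of the feature name, and other genes by the rule that names those called by genotype, or otherwise up to 2 of smallest p per list and tissue, and those called between tissues. Some genes that this rule takes are not reported here. Counts were fitted in R 4.3.3 with edgeR 4.0.16 (filterByExpr, TMM, robust quasi-likelihood fit and F-test, two-sided, Benjamini-Hochberg threshold 0.05), for each tissue alone by genotype and over all 14 libraries for the tissue and interaction contrasts. Fold changes are on the log2 scale. Comparisons by tissue in the 2 genotypes contrasted separate libraries, but came from the same fit with shared scaling, filter and estimates of spread. They are therefore not independent of each other. Alternatives used DESeq2 1.42.0, limma 3.58.1, other scalings and filters, and each library left out. The fit was tested on simulated counts. No pair of libraries was a duplicate by a chi-square test of counts (12.2 to 75.7 per degree of freedom). Gene positions came from the GENCODE annotation of GRCm38 and promoter sequences from RefSeq (GRCm38.p6). Columns of values left unused numbered 0.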

Additional observations from a re-analysis of the deposited data

Results flagged for a closer look

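Among 50 gene and group combinations of 4 livers each, the gap between 1 liver and the rest was large for its group's range in 2, where chance gives about 1 in 20. Both were in BT3xHuBL liver replicate 1, with Mvd at 81.3 CPM (gap 0.837 of the range) and Idi1 at 5.95 CPM (gap 0.876 of the range), both above the 95% critical value of Dixon's test for 4 samples. The other BT3xHuBL livers read 28.5 to 37.1 CPM of Mvd and 1.42 to 1.98 CPM of Idi1. Both genes were chosen by this gap and share a library, so they are not 2 independent signs.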

How the results depend on the processing

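The features called by genotype in aorta numbered 4, and 9 without a low-count filter, 68 by DESeq2, 0 by limma-voom, 0 with both tissues in 1 fit, and 0 to 27 with each library left out (0 without HuBL replicate 2 or 3, 2 without HuBL replicate 1, 27 without BT3xHuBL replicate 3). At an unadjusted p below 0.05, limma-voom gave 687. In liver the count was 0, and 133 by DESeq2, 10 with both tissues in 1 fit, and 0 to 5 with each library left out (5 without BT3xHuBL replicate 2, 2 without BT3xHuBL replicate 3). For the difference between tissues it was 0, and 42 by DESeq2 and 0 to 4 with each library left out (4 without BT3xHuBL liver replicate 2). Plain library totals, chosen after seeing the data, turned Msmo1 in liver from -0.03 to 0.021, Idi1 to -0.36 in HuBL and -0.21 in BT3xHuBL, and Lbr to -0.42 and -0.43 in the tissue contrasts. Leaving out libraries gave -0.41 to 0.22 for Mvd, -0.45 to 0.17 for Msmo1 and -0.079 to 0.45 for Hsd17b7 by genotype in liver, and -0.36 to 0.59 for Idi1 in BT3xHuBL by tissue. These lowest values came without BT3xHuBL liver replicate 1. Same-numbered libraries correlated at -0.06 to 0.14 in aorta and -0.04 to 0.16 in liver, not all over 0.1, and not every library correlated best with its own number, so the numbers were not taken as pairs. With the replicate number as a block, 14 features were called in aorta, 10 in liver and 3 for the difference, and Mvd in liver was at -0.019. The cause of these changes was not tested. The members called numbered 22 to 24 by tissue and 0 by genotype under every alternative run. Depth kept Npc1l1 from being tested, and among the tested members Idi1 has the fewest liver counts, 15 to 98.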
